A study of Vitis vinifera with 2 samples.

Results

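The long 24 nt clusters of leaf are the stretches of the grapevine genome in which 24 nt small interfering RNAs (siRNAs) of leaf tissue were joined over 500 bp or more into a single cluster. A cluster is a run of mapped siRNAs joined by the program ShortStack, and its DicerCall is the fragment size that predominates in it. They were chosen by 2 measured values of the leaf list alone, a DicerCall of 24 and a length of at least 500 bp, and 374 of 89597 leaf clusters (0.417%) met both conditions, so neither value is a result here. They were 0.698% of the 53573 leaf clusters of 24 nt but held 5.24% of the sequence under them, 266.5 kb in all. None carried the mark by which ShortStack flags a miRNA locus (0 of 374). Because miRNA reads had been removed before mapping, this count is not a result about the long clusters.

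Small RNA of 18 to 35 nt came from 2 tissues of Vitis vinifera cv. 'Chardonnay', young leaf and proliferating embryogenic callus (EC), a culture of cells that can form embryos. There was 1 library per tissue, each made from 50 mg of material with no treatment or time course. In the study's methods the callus was grown from anthers of the vines that gave the leaves, and each sample pooled several leaves or several Petri dishes. A whole young leaf holds many cell types, and a cluster does not show which of them made its siRNAs. The lists of clusters carried no reads per cluster, so neither the labelled tissue nor the depth behind a cluster could be checked, and a difference in siRNA level cannot be told apart from a difference in depth. EC had more clusters than leaf and they covered more of the genome, 25.2 Mb or 5.19% of the sequence spanned against 8.06 Mb or 1.66%. The study's read counts show that, after removal of miRNA reads, more reads mapped to the genome in EC than in leaf. Coverage was not adjusted for this. With 1 library per tissue no test between tissues was made. Printed intervals are exact binomial (Clopper-Pearson, 95%) and cover the counting of clusters only, and neighbouring clusters are not independent.

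In plants, 24 nt siRNAs are the product of DICER-LIKE 3 acting on double-stranded RNA that RNA-DEPENDENT RNA POLYMERASE 2 copies from short transcripts of RNA polymerase IV. Loaded on ARGONAUTE 4 and related proteins, they guide cytosine methylation to matching DNA, and most arise from transposable elements and other repeats. Since the precursor is double-stranded, siRNAs from such loci usually map to both strands.

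The long clusters had a median length of 619 bp (quartiles 542 and 759.75 bp), and most lay near the lower limit. The 500 to under 600 bp class held 166 of them and the 600 to under 750 bp class 109, while 64 measured 750 to under 1000 bp and 35 measured 1000 bp or more. The limit cuts through a continuous range. Positions are those of the PN40024 12X assembly. Just inside it lay clusters of 500 bp on chromosome 19 (23838538 to 23839037) and chromosome 4 (18682669 to 18683168) and one of 501 bp on chromosome 17 (4249293 to 4249793), with 0%, 34.8% and 94.2% of their length under EC clusters. Just outside, 1 bp short of the limit, lay a cluster on chromosome 16 (21489027 to 21489525) and a pair on chrUn (26441753 to 26442251 and 30805103 to 30805601), with 17.4%, 41.3% and 53.3%.

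The first question was whether EC produced siRNAs from the same places. EC clusters overlapped 336 of the 374 long clusters by at least 1 bp, or 89.8% (86.3 to 92.7%). For all leaf clusters that share was 41.1%, for all leaf 24 nt clusters 46.0%, and for those of 100 to under 500 bp 55.3%. A longer interval is touched more easily by any other list, so this share is partly set by length and is not read as a property of long clusters. The share of a cluster's length under EC clusters is not subject to this in the same way. It had a median of 42.5% (quartiles 20.1 and 68.5%) over the long clusters, and EC clusters lay over 46.2% of their summed length, against 34.6% for leaf 24 nt clusters of 100 to under 500 bp and 34.8% for all leaf 24 nt clusters.

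**Figure D1:**
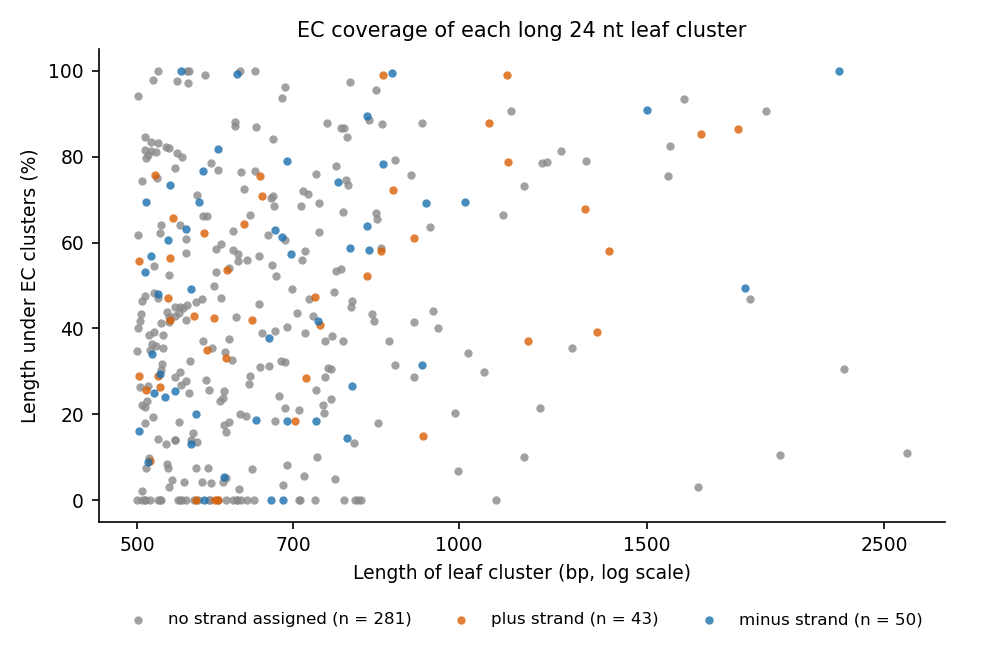
Share of each long 24 nt leaf cluster under EC clusters (%, y axis) against its length (bp, log scale, x axis), 1 point per cluster, coloured by the strand that ShortStack assigned. Points spread over the whole range from 0 to 100% near 500 bp, and 21 of the 35 clusters of 1000 bp or more lie at 50% or above.

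Partial coverage was the common state. No EC cluster lay over 38 long clusters (10.2%, 7.29 to 13.7%), and 6 were covered in full. Between these ends the numbers were fairly even, with 26 clusters covered to under 10%, 49 covered to between 40 and 50%, and 28 covered to between 80 and 90%. At least 50% of the length was covered in 152 long clusters, or 40.6% (35.6 to 45.8%), against 34.1% of all leaf 24 nt clusters and 33% of those of 100 to under 500 bp. At least 90% was covered in 24 long clusters, or 6.42% (4.15 to 9.40%), which was less than the 22.3% of all leaf 24 nt clusters and the 16.5% of those of 100 to under 500 bp. Full coverage is easier to reach for a cluster barely longer than a single siRNA, and these shares were not corrected for length.

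The covered share was higher in the longer classes. Its median was 38.8% in the 500 to under 600 bp class and 39.4% in the 600 to under 750 bp class, then 53.6% in the 750 to under 1000 bp class and 69.5% in clusters of 1000 bp or more. The fraction of clusters at least 50% covered went from 32.5% (25.5 to 40.2%) to 39.4% (30.2 to 49.3%), 53.1% (40.2 to 65.7%) and 60% (42.1 to 76.1%) through these 4 classes. Below 500 bp it was flat, between 32.4% and 35.4% in each of the 4 classes from 100 to under 500 bp. The trend among the long clusters was weak when read cluster by cluster, with Spearman's rho of 0.18 and Pearson's r of 0.17 over 374 clusters that share 2 libraries and, in part, the same loci.

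**Figure D2:**
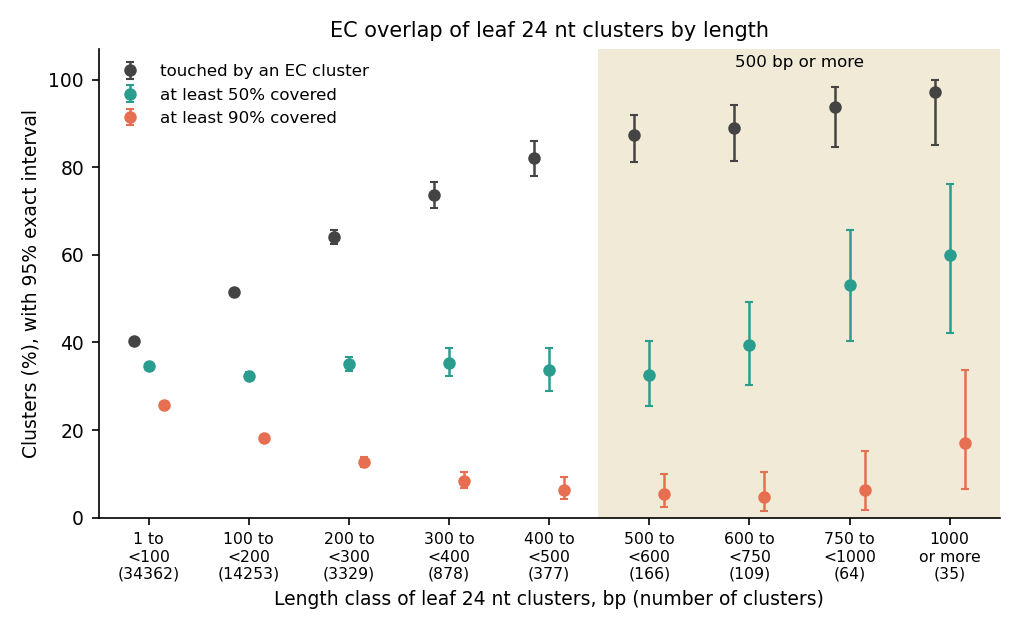
Leaf 24 nt clusters by length class (x axis, bp, with the number of clusters) and the share of them (%, y axis) touched by an EC cluster, at least 50% covered and at least 90% covered; bars are 95% exact binomial intervals and the shaded classes are the long clusters. The share at least 50% covered stays between 32.4% and 35.4% from 100 to under 500 bp and reaches 60% at 1000 bp or more, while the share touched is higher in each longer class.

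The EC clusters over long clusters were mostly of 24 nt, as was the EC list as a whole (77.1% of its 227847 clusters and 82.7% of its sequence). Over the 336 long clusters with EC clusters there were 592 overlaps, of which 512 (86.5%) were with 24 nt clusters, 48 with clusters lacking a size call (N), 14 with 21 nt clusters, 9 with 23 nt, 7 with 22 nt and 2 with 20 nt clusters. By length the 24 nt class made up 91.6% of the EC-covered sequence, with 4.25% for N and 3.18% for 21 nt. The EC partner of longest overlap was of 24 nt at 299 long clusters, which is 89.0% (85.1 to 92.1%) of those with a partner. This share was 79.7% for all leaf clusters of any class and 86.9% for leaf 24 nt clusters of 100 to under 500 bp, and the latter lay within the interval of the long clusters. All EC clusters present were of 24 nt at 265 of the 336 (78.9%), a count not given for shorter clusters.

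Most of the covered long clusters lay under 1 or 2 shorter EC clusters. A single EC cluster lay over 144 long clusters, 2 over 139, 3 over 44, 4 over 7 and 5 over 2. The partner of longest overlap had a median length of 239 bp (quartiles 128 and 416.75 bp), and it was longer than its leaf counterpart in 22 of 336 cases. The long clusters were chosen for their length in leaf, so this difference in length is in part set by the choice. EC had 1942 clusters of 24 nt with at least 500 bp, and they overlapped 63 of the 374 long leaf clusters (16.8%, 13.2 to 21%). Seen from EC, 66 of those 1942 (3.40%, 2.64 to 4.30%) lay on a long leaf cluster, whereas 717 (36.9%) met a leaf cluster of some kind and 554 (28.5%) one of 24 nt. Long 24 nt EC clusters lay on 19 of the 35 leaf clusters of 1000 bp or more (54.3%, 36.6 to 71.2%) but on 14 of the 166 of 500 to under 600 bp (8.43%). A longer cluster is touched more easily, so this contrast is partly set by length. Of the 35, 28 also had another long cluster within 20 kb.

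The 35 longest show the range of these states. The longest, 2623 bp on chromosome 7 (19299500 to 19302122), carried 3 EC clusters, the longest of 147 bp, over 10.9% of its length. The fourth, 1996 bp on chromosome 19 (13697099 to 13699094), was covered to 10.6% by 2 EC clusters, and the last of the 10 longest, 1673 bp (13695315 to 13696987), lay 111 bp from it and was covered to 3.11% by an N cluster of 52 bp. Leaf siRNAs thus ran on over both neighbours with little of either under an EC cluster. In contrast, the third, 2268 bp on chromosome 4 (3618879 to 3621146), lay under 1 EC cluster that began 2 bp inside its start and ended 23 bp past its end.

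Others of the 10 longest were between these. On chromosome 7 the fifth (19294484 to 19296421, 1938 bp) was covered to 90.6%, mostly by 1 EC cluster of 1389 bp, although it lay 3078 bp from the longest, which was covered to 10.9%. The eighth, 1825 bp on chromosome 8 (19628485 to 19630309), was covered to 86.5% and the ninth, 1683 bp on chrUn (13265213 to 13266895), to 85.4%. Covered to under 50% were the second (2292 bp, chromosome 18, 11324250 to 11326541, 30.5% under 5 EC clusters), the sixth (1872 bp, chromosome 2, 6147445 to 6149316, 46.8%) and the seventh (1850 bp, chrUn, 7197749 to 7199598, 49.5%). Of the 35, 21 were covered to at least 50%, 11 to between 10 and 50%, and 3 to less than 10%.

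Coincident edges were rare. Both ends of the EC partner lay within 30 bp of both ends of the long cluster at 6 of 336, exactly 1 end at a further 108 and neither at 222. With a limit of 100 bp the numbers were 20, 197 and 119. The 6 with both ends shared included the third longest and its neighbour on chromosome 4 (3617906 to 3618770, 865 bp), where the EC cluster started 4 bp later and ended 28 bp later. Of the others, 1 was on chromosome 7 (19557258 to 19558093) and 1 on chromosome 19 (18988246 to 18988865). The last 2 lay on chromosome 13 (21241672 to 21242250) and, with the least length, chromosome 1 (3187849 to 3188365). On chromosomes 13 and 1 the right end was the same base in both tissues. EC clusters ran over neither edge at 186 long clusters, over 1 edge at 123 and over both at 27. Shared and overrun edges are not given for shorter clusters, so these counts are not read as particular to long ones. Among the 5 longest with at least 99% covered, besides the pair on chromosome 4, was one on chromosome 8 (19631046 to 19632155, 1110 bp) under an EC cluster of 1860 bp. The remaining ones were on chromosome 11 (3929661 to 3930304, 644 bp) under one of 700 bp, and on chromosome 7 (4718169 to 4718792, 624 bp) under one of 1940 bp.

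EC coverage was concentrated on the long clusters themselves. In the 1 kb on each side EC clusters lay over 12% of the sequence and in the 5 kb on each side over 8.18%, against 46.2% inside and 5.19% of all sequence spanned. Inside, coverage was 37.4% in the first of 10 equal parts and 38.5% in the last, and between 45.3% and 49.8% in the parts between. Flanks of leaf 24 nt clusters of 100 to under 500 bp had EC coverage of 10.9% (1 kb) and 8.04% (5 kb). Averaged over all 374 long clusters, the surroundings gave EC values similar to those of shorter clusters, and the inside did not. This average joins unlike groups. EC clusters lay over 7.78% of the 1 kb flanks of the 263 long clusters with no other within 20 kb, below the 10.9% of shorter clusters. For the 111 with another within 20 kb, whose flanks can hold other long clusters, the value was 22%. No such division is given for shorter clusters. In leaf the surroundings had 14.3% of the 1 kb flanks of long clusters under other leaf clusters against 5.99%, and 9.21% of the 5 kb flanks against 3.91%. These flanks can hold other long clusters, and around the 263 long clusters with no other within 20 kb leaf clusters lay over 7.65% of the 1 kb flanks.

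**Figure D3:**
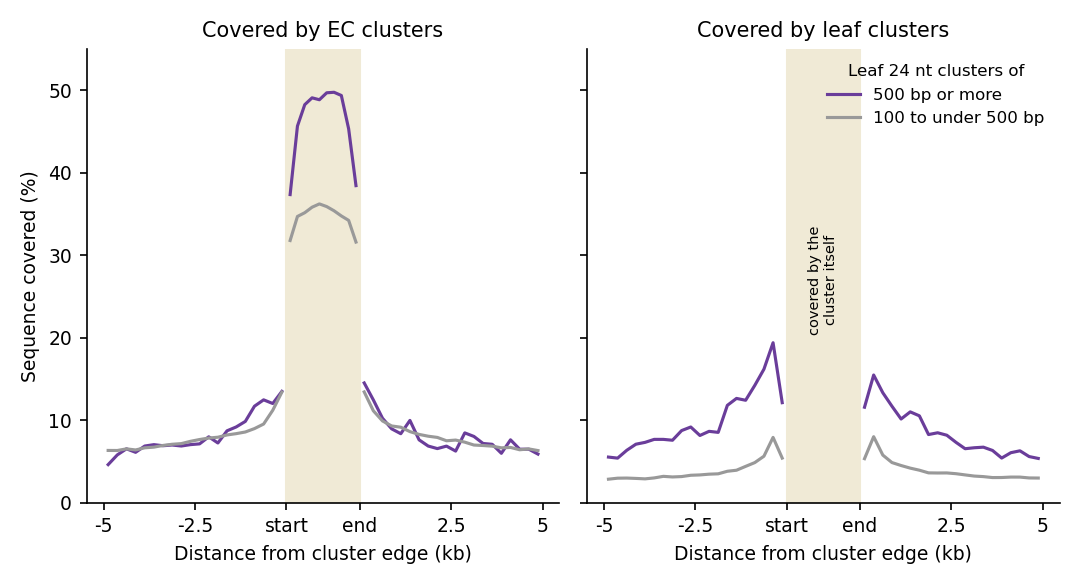
Share of sequence (%, y axis) under EC clusters (left) and under leaf clusters (right) by distance from the edge of leaf 24 nt clusters (kb, x axis; flank bins of 250 bp, inside scaled to 10 equal parts and shaded), for the 374 long clusters and the 18837 of 100 to under 500 bp. EC coverage of long clusters is 37.4 to 49.8% inside and 13.5 and 14.5% in the nearest flank bins, and leaf coverage of the flanks is higher around long than around shorter clusters. No 2 leaf clusters lay closer than 64 bp, which lowers leaf coverage in the nearest bins.

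Long clusters had other leaf clusters close by. The nearest was a median of 202.5 bp away (quartiles 100 and 836.25 bp), against 520 bp for leaf 24 nt clusters of 100 to under 500 bp and 677 bp for all of 24 nt. It lay within 200 bp at 187 of 374 (50.0%), against 28.1% and 24.4%. A close neighbour was not particular to the 24 nt class. Among leaf clusters of 500 bp or more the median distance was 112 bp for 21 nt and 169 bp for N clusters. The cluster nearest to a long 24 nt cluster was of 24 nt in 279 cases (74.6%, 69.9 to 78.9%), N in 56, 23 nt in 18, 21 nt in 15, 20 nt in 4 and 22 nt in 2. Its 24 nt share was 67.9% (67.2 to 68.6%) around clusters of 100 to under 500 bp. Clusters of 24 nt lay on both sides of 171 long clusters (45.7%). At the other end of the range, 17 (4.55%) had no other leaf cluster within 5 kb. Neither count is given for shorter clusters, so neither is read as particular to long ones. How many of these neighbours are pieces of 1 locus split where siRNAs were too far apart was not tested.

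Strand was not used to choose the clusters. ShortStack assigned no strand, its call for siRNAs from both strands, to 281 of 374 (75.1%, 70.4 to 79.4%). The plus strand was assigned to 43 and the minus strand to 50. The share without a strand was 61.7% in leaf 24 nt clusters of 100 to under 200 bp, 74.1% in those of 200 to under 300 bp, 79.4% and 82.8% in the next 2 classes, and then 75.9%, 78.9%, 73.4% and 62.9% through the 4 classes of long clusters. It thus stopped rising near 500 bp. Of the 35 clusters of 1000 bp or more, 9 were on the plus and 4 on the minus strand (22 had no strand, interval 44.9 to 78.5%).

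Where both tissues had a strand, it was nearly always the same one. Of 40 long clusters on 1 strand whose EC partner was also on 1 strand, 39 agreed (97.5%, 86.8 to 99.9%), 18 on plus and 21 on minus. The exception was a plus-strand cluster of 606 bp on chromosome 5 (17571346 to 17571951), whose partner was a 22 nt cluster of 119 bp on the minus strand. For leaf 24 nt clusters of 100 to under 500 bp, 1446 of 1596 such pairs agreed (90.6%, 89.1 to 92.0%), so agreement was also high for shorter clusters and the intervals overlap. A further 47 of the 87 long clusters on 1 strand with a partner (54.0%) had a partner without a strand. Long clusters without a strand had a partner without one in 190 of 249 cases (76.3%, 70.5 to 81.4%). For leaf 24 nt clusters of 100 to under 500 bp the same shares, in this order, were 55.6% (54.0 to 57.2%) and 67.9% (66.7 to 69.0%). Clusters on 1 strand were covered by EC to a median of 52.3% (quartiles 26.7 and 69.5%) and those without a strand to 40.4% (quartiles 18.2 and 66.8%), ranges that largely overlap.

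Some of the long clusters were gathered in places. Another lay within 20 kb of 111 of the 374 (29.7%), within 5 kb of 88 and within 1 kb of 59. Such counts are not given for shorter clusters, so gathering is not read as particular to long ones. Grouped at 20 kb, the 374 fell into 307 places, of which 263 held 1 long cluster, 32 held 2, and 12 held 3 or more (47 clusters). Of the 35 clusters of 1000 bp or more, 28 had such a neighbour. The gathered clusters differed from the single ones in several values. They were on 1 strand in 52 of 111 cases (46.8%, 37.3 to 56.6%) against 41 of 263 (15.6%, 11.4 to 20.5%), had a median length of 709 bp against 601 bp, and were covered by EC to a median of 57.3% (quartiles 26.4 and 76.4%) against 39.4% (19 and 62.7%). Their 1 kb flanks, which can hold other long clusters, were covered to 22% by EC and 30% by leaf clusters, against 7.78% and 7.65%. The share touched by EC was 91.0% (84.1 to 95.6%) and 89.4% (85.0 to 92.8%). With gathered clusters left out, the agreement of strand rested on 19 of 20 pairs.

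Within a place the strand was nearly always shared. In 18 places 2 or more long clusters had a strand, 40 clusters in all, and in 17 of the 18 they were on the same one. The exception was on chromosome 11 (14482132 to 14497049), where 2 minus-strand clusters lay more than 10 kb from 1 on the plus strand. No count by place is given for shorter clusters. The nearest leaf cluster of any class, which can itself be long, tended to share the strand of a long cluster as well. Where both had a strand and lay within 200 bp, 35 of 39 agreed (89.7%, 75.8 to 97.1%), against 611 of 969 (63.1%, 59.9 to 66.1%) for 24 nt clusters of 100 to under 500 bp. At gaps of more than 200 and up to 1000 bp the values were 14 of 21 (66.7%, 43.0 to 85.4%) and 54.1% (51.3 to 57.0%). Long clusters nearest to each other enter these counts 2 times and can also be among the 18 places, so the counts are not independent. Whether the neighbours are pieces of 1 locus was not tested.

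The 12 places with 3 or more long clusters lay on 8 chromosomes and differed widely in EC. Coverage of the long clusters was highest on chromosome 4 (3614877 to 3621146, 3 clusters, 94.0%), chromosome 8 (1084520 to 1089422, 4 clusters, 86.8%), chromosome 19 (18985583 to 18988865, 4 clusters, 80.8%) and chromosome 7 (4713781 to 4734566, 5 clusters, 79.8%). In these 4 places every long cluster with a strand was on minus. On chromosome 8 the leaf clusters covered 87.3% of the 4903 bp and the EC clusters 80.8%, all of 24 nt. Both lists left gaps in this stretch.

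At the low end stood another place on chromosome 8 (18699270 to 18705990), where 4 long clusters, all without a strand, were covered to 8.43%. Leaf had 12 clusters over 71.9% of its 6721 bp, all of 24 nt, and EC 7 clusters of 24 nt over 6.73%. The 4 long clusters were covered to 0%, 21.4%, 6.71% and 0%. The place on chromosome 12 (5856542 to 5863087) was similar, with 4 long clusters covered to 12.7%, of which 2 were on plus, and leaf clusters over 70.4% against EC clusters over 11.2% of its 6546 bp. Between these lay chromosome 14 (25218469 to 25229408, 3 clusters, 26.5%), chromosome 4 (10616313 to 10623349, 5 clusters, 30.8%), chromosome 1 (1341313 to 1355735, 3 clusters, 40.7%), a further place on chromosome 8 (13614049 to 13628903, 4 clusters, 41.6%), a second on chromosome 7 (19290266 to 19302122, 3 clusters, 48.1%) and chromosome 11 (14482132 to 14497049, 5 clusters, 52.1%). Neighbours could differ greatly, although no such difference was computed for clusters of different places. On chromosome 14 a cluster with no EC cluster (25218469 to 25219073) lay 137 bp from one covered to 72.4% (25219211 to 25219840), and in the 32 pairs the 2 covered shares differed by a median of 22.1 percentage points and at most 56.0.

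**Figure D4:**
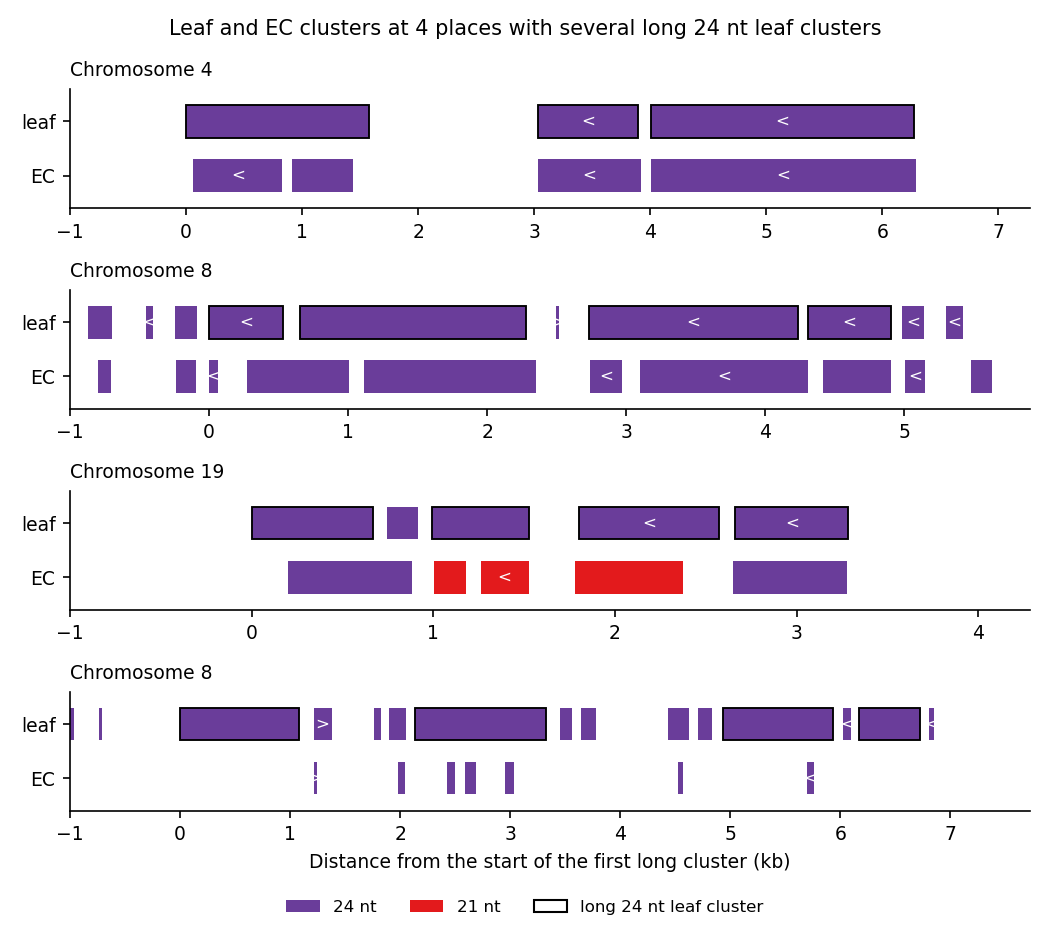
Leaf clusters (upper row) and EC clusters (lower row) at 4 of the 12 places with 3 or more long 24 nt leaf clusters, by distance from the start of the first long cluster (kb, x axis); colour gives the size class, a black outline marks long 24 nt leaf clusters, and < or > marks the minus or plus strand. From top to bottom, EC clusters cover 94.0%, 86.8%, 80.8% and 8.43% of the long clusters, and on chromosome 19 those over the 2 middle long clusters are of 21 nt.

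The 21 nt class, made by other Dicer proteins and tied to post-transcriptional silencing, was the main class in EC at few long clusters. The EC partner was of 21 nt at 8 of them, of 22 nt at 3, of 23 nt at 3 and N at 23. The share of 21 nt partners is not given for shorter clusters, so these counts are not read as particular to long ones. At 6 of the 8, 21 nt clusters lay over more than 50% of the length. These were on chrUn (29343387 to 29344504, 1118 bp, 90.5% under 21 nt clusters), chromosome 15 (19418918 to 19419475, 97.1%), chromosome 17 (7293577 to 7294193, 87.0%), chromosome 11 (14483662 to 14484760, 50.7%) and a pair on chromosome 19 (18986575 to 18987106, 82.3%, and 18987387 to 18988157, 74.1%). The 2 on chromosome 19 were the inner pair of a place with 4 long clusters, and the outer pair had EC partners of 24 nt (70.5% and 99.2% covered). At the 2 others the 21 nt share was small, 9.41% on the unplaced sequence of chromosome 13 (1954408 to 1954949) and 18.1% on chromosome 16 (16106569 to 16107072). The 3 with a 22 nt partner, on chromosomes 5 (17571346 to 17571951), 8 (13478064 to 13478666) and 1 (1355197 to 1355735), were covered to 33.2%, 25.5% and 4.64%. Coverage where the partner was of 21 nt had a median of 78.2% (14.0 to 97.1%, n = 8), against 47.5% (2.18 to 100%, n = 299) where it was of 24 nt. The ranges overlap and 2 of the 8 lay in the same place, so this contrast is only a description.

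The 38 long clusters without an EC cluster were on the short side, with a median of 593 bp and a range from 500 to 1082 bp, and 32 had no strand. Only 1 of the 35 clusters of 1000 bp or more was among them, the one that opens the sparse place on chromosome 8 (18699270 to 18700351, 1082 bp). The next longest were on chrUn (9083641 to 9084449, 809 bp), chromosome 3 (6924839 to 6925642, 804 bp, and 7059707 to 7060506, 800 bp) and chromosome 17 (1704940 to 1705720, 781 bp). An EC cluster lay within 1 kb of 19 of the 38 (50%, 33.4 to 66.6%) and within 5 kb of 37 (97.4%). Of all leaf 24 nt clusters without an EC cluster over them, 67.9% had one within 1 kb and 94.0% within 5 kb, so an EC cluster within 5 kb was the usual state. EC clusters covered 6.23% of the 1 kb flanks of the 38, close to the 5.19% of all sequence spanned. The value was 6.81% for all leaf 24 nt clusters without an EC cluster and 6.91% for those of 100 to under 500 bp. Around the long clusters that had an EC cluster it was 12.7%, but there an EC cluster running over an edge also fills part of the flank. The exception at 5 kb was on chromosome 15 (16200514 to 16201128), which had no leaf cluster within 5 kb either. A place with no EC cluster had too few mapped reads in that library to form one, which does not show that it made no siRNA.

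Along the chromosomes the long clusters were more frequent towards the ends. On chromosomes 1 to 19, 105, 72, 34, 52 and 80 fell in the 5 equal parts from the start to the end. The outer 2 parts held 185 of 343 (53.9%, 48.5 to 59.3%), against 45.2% (44.5 to 46.0%) of leaf 24 nt clusters of 100 to under 500 bp and 43.6% of all leaf 24 nt clusters. Per 1000 leaf clusters of 24 nt the numbers were 9.87, 6.72, 4.38, 5.81 and 7.56. EC coverage of their summed length was 51.5%, 43.5%, 34.9%, 45.7% and 44.0%, highest in the first part and lowest in the middle one as the numbers were, but in another order among the rest. Of the 30 on these chromosomes that measured 1000 bp or more, 70% (50.6 to 85.3%) lay in the outer parts. Among leaf clusters of 500 bp or more of other classes, the outer parts held 57.4% (49.4 to 65.1%) of those of 21 nt. For N clusters the share was 48.5% (36.0 to 61.1%). A higher share in the outer parts was thus not particular to the 24 nt class.

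**Figure D5:**
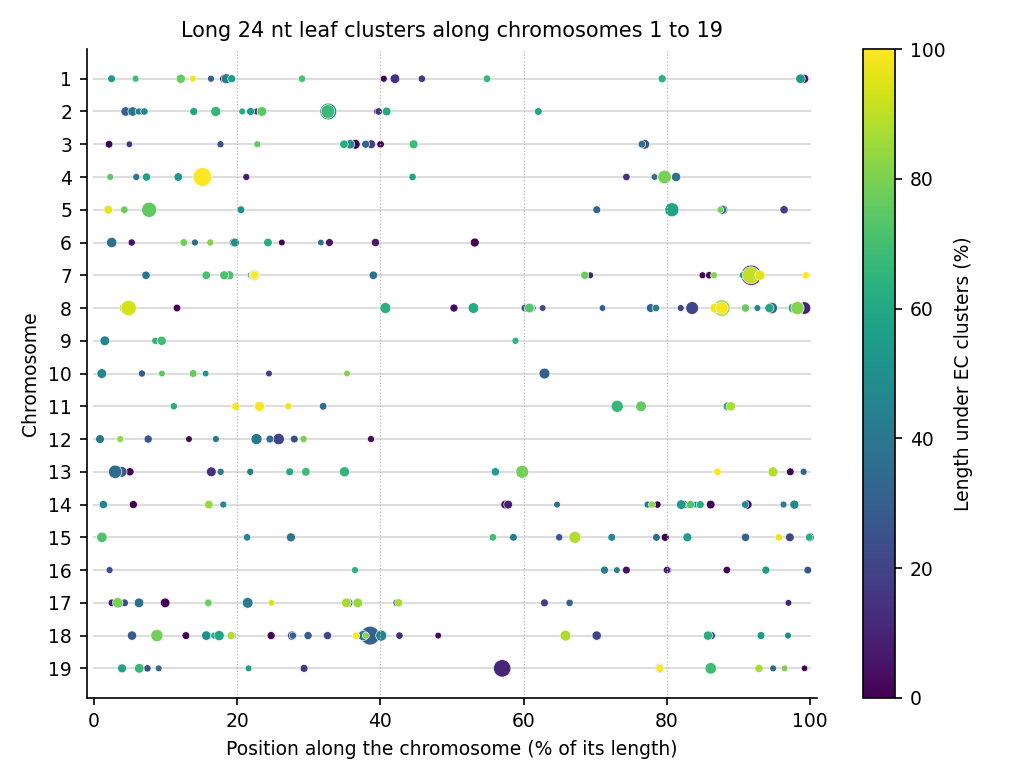
Long 24 nt leaf clusters on chromosomes 1 to 19 (y axis) by position (% of chromosome length, x axis); point size grows with cluster length, colour gives the share under EC clusters, and dotted lines mark 5 equal parts. The middle part holds 34 of 343 and the first 105, and chromosome 8 has the most (39).

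Chromosome 8 had the most long clusters, 39, followed by chromosome 18 with 34. Per 1000 leaf clusters of 24 nt there were 13.3 on chromosome 8, 10.9 on chromosome 2, 10.2 on chromosome 7 and 9.48 on chromosome 18, down to 1.89 on chromosome 9, which had 4 long clusters. The unplaced sequence chrUn held 29 and the sequences assigned to chromosomes 13 and 18 but not placed held 1 each. EC coverage of the summed length ranged from 26.6% on chromosome 16 (10 clusters) and 28.6% on chromosome 3 (14) to 62.7% on chromosome 11 (15), and was 52.0% on chromosome 8. With so few clusters per chromosome, some of them in the same place, these values are a description and were not compared.

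Long leaf clusters of other classes gave other values in EC. The 194 of 21 nt with at least 500 bp were touched by an EC cluster in 58.2% of cases (51 to 65.3%), were covered to a median of 6.22% (quartiles 0 and 40.4%) and had an EC partner of 24 nt in 15% of those with a partner. The 83 N clusters of that length were touched in 73.5% (62.7 to 82.6%) and covered to a median of 44.1%, with a 24 nt partner in 32.8%. Of these 3 classes that of 24 nt had the highest share touched, and its median coverage was close to that of N clusters. By summed length the N clusters were the most covered, with 50.7% under EC clusters against 46.2% for 24 nt and 22.7% for 21 nt. At least 90% of the length was covered in 19.3% of the N clusters, 7.22% of those of 21 nt and 6.42% of those of 24 nt. The 21 nt clusters were flanked by EC clusters over 7.36% of the adjacent 1 kb, against 12% for the long 24 nt clusters and 16.2% for the N clusters.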

How the data were processed

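Small RNA libraries of leaf and EC (1 each) were processed by the authors. In the study's methods, adapters were trimmed with the UEA small RNA Workbench, which also selected reads by size, tRNA, rRNA and miRNA reads were removed, and the rest were mapped to the PN40024 12X genome and joined into clusters with ShortStack, which places multi-mapping reads by nearby unique ones. ShortStack settings (minimum coverage, padding): not given in the sources used here. Files as deposited hold the start, end, strand and DicerCall of each cluster with no score, so library depth was not used. Removal of reads and multi-mapping can affect where clusters were called.

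Overlap required 1 bp, and covered shares were summed over bases, with Python 3.11.15, pandas 2.3.3 and scipy 1.17.1. The last base of a cluster in either list stood for the end of each sequence. Interval functions were tested on simulated data, where 0 of 2000 queries differed from a per-base count and all 300 planted overlaps were found.

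The members, lists and regions named were chosen with earlier results of these data known. Named regions were the 10 longest, those of 1000 bp or more without an EC cluster, the 5 longest covered to at least 99%, the 5 longest without an EC cluster, all with a 21 or 22 nt partner, all places of 3 or more within 20 kb, and the 3 on each side of the limit. Clusters with coincident edges or an opposite strand, the isolated cluster on chromosome 15, and the pair on chromosome 14 were named after their values were seen. Genes and sequences were not analysed here, because the gene table at hand is of another assembly.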

Additional observations from a re-analysis of the deposited data

How the results depend on the processing

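Of 48 alternatives, 30 stayed inside the 95% interval of the value or within 1.5 times of a count. For EC and leaf coverage of the flanks that interval counted single bases as if independent. It was therefore too narrow, and all alternatives for the flanks fell outside it, so these do not measure how stable the flank values are. A limit of 400 bp gave 751 clusters, of which 86.0% were overlapped by EC, and a limit of 1000 bp gave 35, of which 97.1% were overlapped, with a median covered share of 69.5%, 62.9% without a strand and 70% in the outer 2 of 5 parts of a chromosome. Joining leaf 24 nt clusters within 200 bp, an alternative chosen after seeing the data, gave 1192 clusters with a median covered share of 30.3%, so both number and coverage depend on where the joining step stops. Requiring EC clusters over at least 50% of a cluster gave 40.6%. With EC clusters of 24 nt only, 84.2% were overlapped and the median covered share was 37.9%. EC coverage of the flanks was 8.18% at 5 kb, 11.8% with EC clusters over 30 bp only, and 7.78% for clusters with no other within 20 kb. Leaf coverage of the flanks was 9.21% at 5 kb, a setting added after seeing the data, and 7.65% for clusters with no other within 20 kb. The last choice, also made after seeing the data, gave 84.4% without a strand. The share of 24 nt partners and the agreement of strand stayed inside their intervals under every alternative run for them.

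The unknown number of reads per cluster limits these values. Reads too few to form a cluster are not in the lists, and depth was not equalised between libraries. The comparison with genes was not run. No paired analysis was possible because leaf and EC had 1 library each.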
